A study of Mus musculus with 11 samples.

Results

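The nuclei described here are inhibitory neurons of the mouse brain that expressed *Cpa6*, *Lgr5*, *Lgr6* and *Frmd7*. They were taken from single-nucleus RNA-seq of frozen cortex of 11 female mice, with 1 library per mouse. A nucleus was a member if it had 300 to 8000 genes, at most 5% of its unique molecular identifiers (UMIs) in mitochondrial genes, at least 2 UMIs of *Gad1* and *Gad2* together, at most 1 UMI of *Slc17a7*, 0 of *Vip*, and at least 1 UMI of at least 2 of the 4 genes. There were 1322 members among 112539 nuclei that passed the filters, or 1.18%, and among 19732 nuclei of the inhibitory gate, meaning those that met the *Gad1*, *Gad2*, *Slc17a7* and *Vip* conditions, or 6.70%.

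The study asked how NF-κB signalling in microglia bears on tau disease. The 4 non-transgenic mice (ikbkb+/+) were 9.8 to 10.85 months old. The 3 P301S mice (ikbkb+/+;P301S+), 9.15 to 10.75 months old, carried human tau with the P301S mutation under the mouse prion promoter. The 2 knockout P301S mice (ikbkb-/-;P301S+), 8.39 to 9.15 months old, also lacked *Ikbkb*, the gene of the kinase IKKβ. The 2 active IKKβ P301S mice (ikbkbCA;P301S+), 9.8 to 10.85 months old, expressed constitutively active IKKβ. Deletion and activation were driven by tamoxifen-induced Cre under *Cx3cr1*, a microglial promoter in brain, so members were not targeted cells and *Ikbkb* in them does not check the label. Controls came from the same crosses without Cre and also received tamoxifen. Non-transgenic replicates 3 and 4 and P301S replicate 3 came from the active IKKβ line. Non-transgenic replicates 1 and 2 and P301S replicates 1 and 2 came from the floxed *Ikbkb* line. The labels state no separate collection, extraction or sequencing batches.

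LGR5 and LGR6 are receptors for R-spondins, secreted proteins that raise Wnt signalling by removing the ubiquitin ligases ZNRF3 and RNF43 from the cell surface, and LGR5 is best known from stem cells of the gut and hair follicle. CPA6 is a secreted metallocarboxypeptidase of the extracellular matrix, and FRMD7 is a FERM domain protein needed for the direction-selective circuit of the retina. Forebrain GABAergic neurons arise in the ganglionic eminences. Most cortical interneurons come from the medial (MGE) and caudal (CGE) eminences, whereas the dorsal part of the lateral eminence (LGE) gives rise to granule and periglomerular interneurons of the olfactory bulb and to intercalated cells of the amygdala. MEIS2, TSHZ1, PBX3 and SP8 are transcription factors of that dorsal LGE lineage.

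Members were spread very unevenly over mice. Non-transgenic replicates 1 to 4 held 271, 23, 41 and 368 members. P301S replicates 1 to 3 held 15, 22 and 319. Knockout P301S replicates 1 and 2 held 24 and 199, and the active IKKβ P301S replicates held 14 and 26. The 4 mice with many members, non-transgenic replicates 1 and 4, P301S replicate 3 and knockout P301S replicate 2, gave 1157 of the members, or 87.5%, and the other 7 mice gave 165. These 4 libraries came from 3 genotypes and both breeding lines. Every library had 7362 to 12208 nuclei and 72007219 to 93205362 UMIs, and no barcode sequence was shared among members.

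*Cpa6* (chr1:10324720-10719945, minus strand, GRCm38) was detected in 88.8% of members, with a median of 5 UMIs. *Lgr5* (chr10:115450311-115587780, minus strand) was detected in 84.8%, *Lgr6* (chr1:134983301-135105276, minus strand) in 67.5% and *Frmd7* (chrX:50895180-50942710, minus strand) in 56.5%. These genes chose the members, so their levels are a description. All 4 were found in 420 members, 3 in 450 and 2 in 452. *Cpa6* with *Lgr5* and *Lgr6* was the most frequent set of 3, in 279 nuclei. Just outside the limit, 2669 nuclei of the inhibitory gate had 1 of the genes, with a median of 1 UMI over the 4 genes against 5 in the members with 2 genes.

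Nuclei that should lack these genes gave the background. In the oligodendrocyte gate (16439 nuclei, median 2436 UMIs), *Cpa6* had a UMI in 2.05%, *Lgr5* in 1.27%, *Lgr6* in 0.274% and *Frmd7* in 0.176%. In the microglia gate (3695 nuclei, median 2120 UMIs) the shares were 2.00%, 1.54%, 0.298% and 0.298%. Members had a median of 5590 UMIs. At least 2 of the genes were seen in 11 oligodendrocyte and 4 microglial nuclei, that is 0.0669% and 0.108%. Excitatory nuclei, at a median of 12670 UMIs, had *Cpa6* in 14.2%, *Lgr5* in 7.33% and *Lgr6* in 0.738%, and 266 of them, or 1.3%, had at least 2 of the genes. The excitatory share is not taken as a background, since single excitatory nuclei reached 42 UMIs of *Cpa6* and 17 of *Lgr5*. Members were 0.672% to 1.52% of the inhibitory gate in 6 of the 11 mice. Among these, 12 of 23 members in non-transgenic replicate 2 and 10 of 24 in knockout P301S replicate 1 fell in the main cluster described below. The others had 0 to 2 such members.

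**Figure D1:**
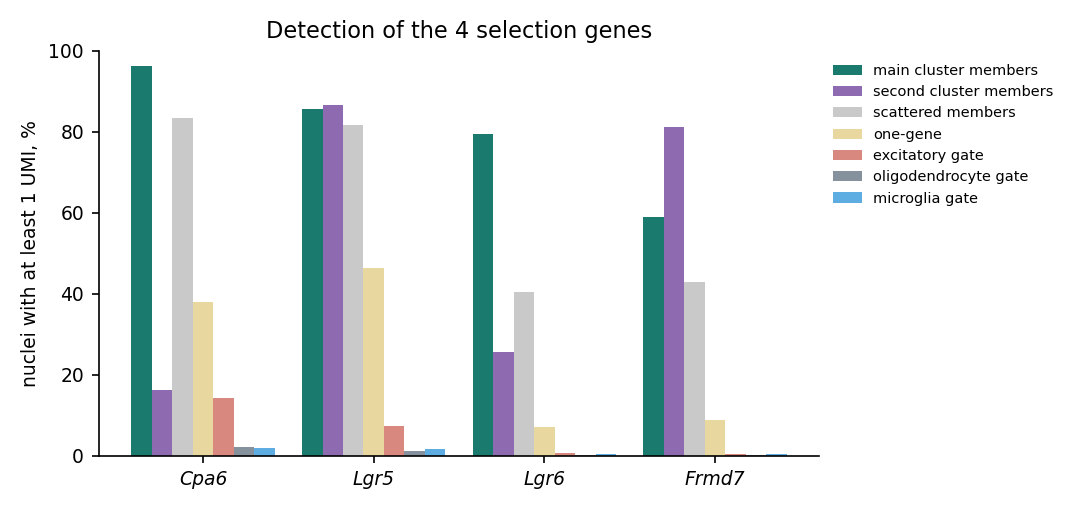
Share of nuclei (%) with at least 1 UMI of each of the 4 selection genes, for the parts of the member set and for other classes, which differ in depth; one-gene nuclei are inhibitory nuclei with exactly 1 of the genes. Cpa6 was found in 96.2% of main cluster members but 16.2% of second cluster members, and in 2.05% of oligodendrocyte nuclei.

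Clustering the inhibitory gate without the 4 genes gave 20 clusters, and the members fell into 3 kinds. The main cluster held 948 members, or 71.7%, and only 79 other nuclei. A second cluster held 74 members, or 5.60%, among 349 other nuclei. The remaining 300 members, or 22.7%, were scattered over the 18 other clusters. Scattered members had a median of 11270 UMIs and 49.0% of them were called doublets, against 5100 UMIs and 1.27% for main cluster members. The summed level of 8 oligodendrocyte genes was 765 CPM (counts scaled to a common library total) in scattered members, 141 in main cluster members and 310 in inhibitory nuclei with 0 of the 4 genes. The part of doublets in the scattered members was not tested further. Of the nuclei with all 4 genes, 89.8% were in the main cluster, against 41.4% of those with 2.

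The composition of the members also differed between mice. Main cluster members numbered 217, 12, 30 and 285 in the non-transgenic mice, 2, 0 and 247 in the P301S mice, 10 and 143 in the knockout P301S mice, and 2 and 0 in the active IKKβ P301S mice. The 4 mice with many members held 892 of the 948. In P301S replicate 2 and active IKKβ P301S replicate 2, 21 of 22 and 25 of 26 members were scattered. A value over all members therefore compares mostly main cluster nuclei in some mice with mostly scattered nuclei in others.

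**Figure D2:**
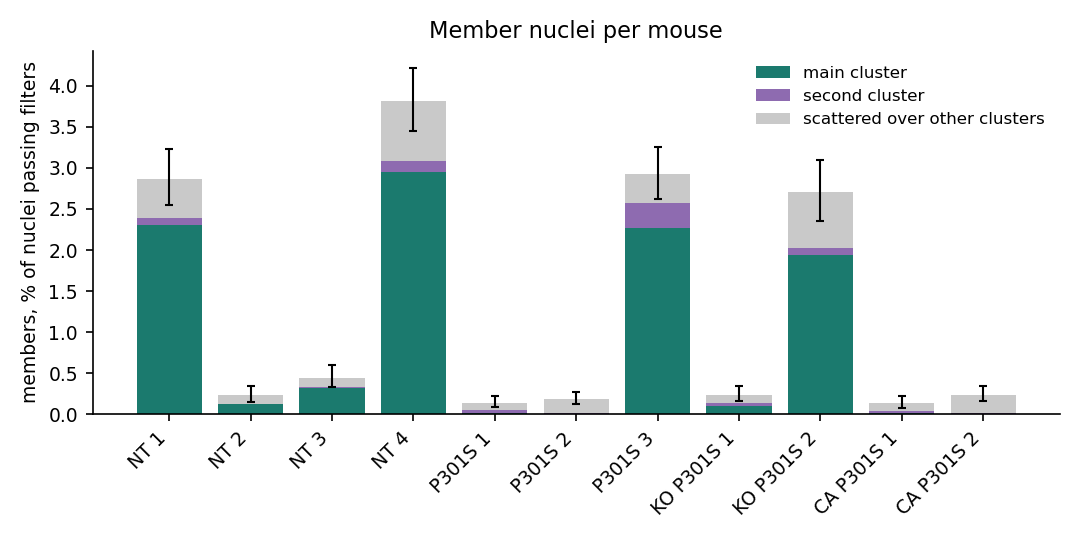
Members as % of nuclei passing the filters in each mouse (NT, non-transgenic; KO, knockout; CA, active IKKβ), with bars stacked by cluster and whiskers giving the 95% Wilson interval of the whole bar, which covers counting error only. The 4 mice with many members stand between 2.70% and 3.82%, the other 7 between 0.130% and 0.443%, and main cluster nuclei make up most of the tall bars.

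Main cluster members expressed the transcription factors of dorsal LGE and olfactory bulb interneurons and had low levels of most markers of other inhibitory classes. Levels are given as CPM of summed UMIs, as mean ± SD over the 7 mice with at least 10 main cluster members, beside inhibitory nuclei of the same mice with 0 of the 4 genes. Since the members were chosen and clustered on these nuclei, no test was made. *Meis2* was at 4174 ± 392.2 CPM against 1122, *Pbx3* at 1803 ± 284 against 319 and *Tshz1* at 545 ± 111 against 75.8. Each of these was higher in all 7 mice, and the ranges did not overlap. *Synpr*, a synaptic vesicle protein of bulb granule cells, was at 1010 ± 197 against 315, and *Etv1* at 133 ± 33.9 against 26.5. Of 14 measured genes of the dorsal LGE and bulb list, 8 were higher in all 7 mice and 2 were lower, with a median log2 ratio of 1.98. Over all 8778 genes measured, 10.0% were higher and 20.7% lower in all 7 mice, with a median of -0.09.

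Several other genes of that list were at low levels. *Sp8* was at 10.8 ± 5.44 CPM against 0.584 and higher in 6 of 7 mice. *Th*, the rate-limiting enzyme of dopamine synthesis, was at 7.91 ± 10.5 against 0.447 and higher in 5, and *Calb2* at 8.11 ± 8.41 against 2.44 and higher in 4. For *Sp8*, *Th* and *Calb2*, shallow mice lay near the floor. In non-transgenic replicate 2, with 67409 main cluster UMIs, *Th* at 29.7 CPM stood for 2 UMIs. In knockout P301S replicate 1, where all of them were at 0, 1 UMI was 21.9 CPM. *Penk* was lower than in the comparison nuclei in all 7 mice, at 27.2 ± 11.1 against 49.7. *Trh* was at 0.260 CPM against 0.281. The main cluster is therefore called dorsal LGE or olfactory bulb interneuron-like from its transcription factors, without a subclass. The labelled tissue is cortex.

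Most measured genes of the other lineages were lower. Over all genes, 20.7% were lower and 10.0% higher in all 7 mice. All 8 measured MGE genes were lower in all 7 mice, with *Lhx6* at 0.761 against 27.9 CPM, *Sox6* at 33.5 ± 20.3 against 352 and *Sst* at 1.66 against 35.2. Of 8 measured CGE genes, 6 were lower in every mouse, among them *Reln* at 15.7 ± 11.9 against 401 and *Npas1* at 0.342 against 15.6, whereas *Adarb2* was higher, at 2168 ± 225 against 1624. The 12 genes of the CGE list summed to 2286 CPM in pooled main cluster members against 2106, most of it *Adarb2*. All 11 measured striatal projection neuron genes were lower, with *Drd1* at 1.04 against 23.0 and *Drd2* at 1.57 against 132. *Foxp2*, a gene of amygdala intercalated cells, was at 47.9 ± 11.2 against 378, although *Oprm1* was higher in all 7 mice, at 105 ± 34.7 against 59.0. Of 9 measured genes of the list for amygdala intercalated and other subpallial cells, 6 were lower and 2 higher in all 7 mice (66.7% and 22.2%).

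**Figure D3:**
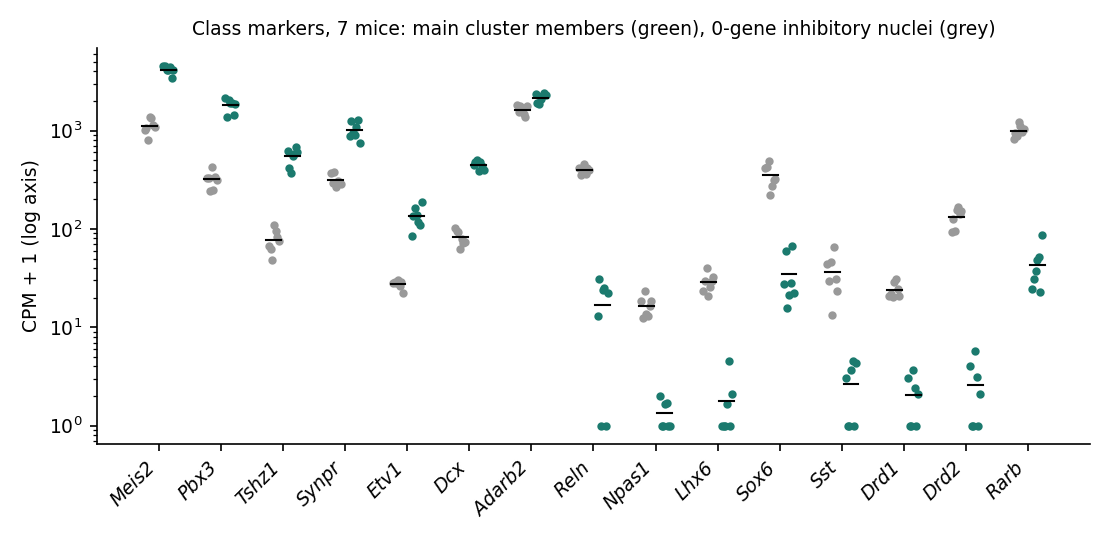
CPM + 1 on a log axis for genes of inhibitory classes in main cluster members (green) and inhibitory nuclei with 0 of the 4 genes (grey). Each point is 1 of 7 mice and each line a mean; Meis2, Pbx3 and Tshz1 lie higher in members in every mouse, Lhx6, Sst, Drd1 and Drd2 lower.

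Genes outside the lists set the main cluster further apart. Among genes at 50 CPM or more and higher in all 7 mice, the largest ratios were of *Adamts19*, a secreted metalloprotease, at 304 ± 70.6 against 3.42 CPM, *Dnah11*, an axonemal dynein heavy chain, at 225 ± 94.7 against 2.46, and *Vipr2*, a receptor of vasoactive intestinal peptide and PACAP, at 199 ± 56.2 against 2.66. *Npffr2*, a neuropeptide FF receptor, was at 93.4 ± 11.97 against 3.85. *Chrm2*, the muscarinic M2 receptor, was at 972 ± 559 against 74.5 and ranged from 262 to 2107 between mice. *Kcnb2*, a delayed rectifier potassium channel, reached 6855 ± 1274 against 586, and *Pcbp3*, an RNA-binding protein, 1825 ± 141 against 116. Genes far lower included *Alk*, at 13.7 ± 7.27 against 440, and *Btbd11*, at 7.77 ± 5.72 against 260.

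Over all members and all 11 mice, the corresponding ranking was led by *Adamts19*, at 125 ± 111 against 3.13 CPM, and *Vipr2*, at 79.6 ± 74.3 against 2.34. Of its 20 genes, 5 were also among the 20 of the main cluster. *Adamts19* ran from 3.38 CPM in the lowest mouse to 326 in the highest.

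Main cluster nuclei expressed mature neuron genes together with doublecortin. *Dcx*, a microtubule protein of migrating neuroblasts, was at 448 ± 43.6 against 81.9 CPM and higher in all 7 mice. Of the 5 measured genes of the immature neuron list, it was the only one higher in every mouse. *Sox11*, a transcription factor of newborn neurons, was at 8.29 ± 6.49 against 15.2. *Rbfox3*, which encodes NeuN, was at 1044 ± 182 against 718, and *Snap25*, a synaptic release protein, at 1626 ± 158 against 681. Of the 10 mature neuron genes, 7 were higher in all 7 mice and 3 lower, beside 10.0% and 20.7% of all genes.

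In the R-spondin pathway, *Lgr4*, the third receptor of the family, was at 171 ± 34.9 against 55.3 CPM and higher in all 7 mice, and was not used in the selection. *Rspo3*, a ligand, was at 63.8 ± 35.5 against 8.46 and higher in 6 mice, with 0 UMIs in knockout P301S replicate 1, whose 10 main cluster nuclei had 45731 UMIs. *Rspo1* was at 0.550 against 3.87. *Znrf3*, the ligase, was at 115 ± 13.5 against 107 and its relative *Rnf43* at 1.02 against 7.84. *Apc*, a scaffold of the β-catenin destruction complex, was at 1844 ± 215 against 431, with no overlap between the ranges. The target genes *Axin2* and *Lef1* stood at 12.4 ± 12.6 against 12.3 and at 2.57 against 1.48. The *Lef1* mean rests mostly on 1 UMI, or 14.8 CPM, in non-transgenic replicate 2. With *Lgr5* and *Lgr6* set aside, 4 of 22 measured genes of the list were higher in all 7 mice and 2 lower, beside 10.0% and 20.7% of all genes.

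Among genes of GABA handling, *Gad1* was at 856 ± 129 against 229 CPM and *Gad2* at 307 ± 78.7 against 307, both used in the gate. *Slc12a2*, the chloride importer NKCC1, was at 141 ± 43.0 against 48.7, and *Gabra5*, a receptor subunit, at 284 ± 61.4 against 34.5. *Gabrg3*, another subunit, was lower in all 7 mice, at 352 ± 243 against 2182. Of the 25 genes, 6 were higher and 8 lower in all 7 mice (24.0% and 32.0%, beside 10.0% and 20.7% of all genes).

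Of 24 glutamate receptor genes, 6 were higher and 11 lower in all 7 mice (25.0% and 45.8%, beside 10.0% and 20.7% of all genes). *Grm8*, a presynaptic metabotropic receptor, was at 952 ± 134 against 343 CPM, while the kainate receptor gene *Grik1* was at 33.0 ± 21.6 against 590. *Mapt*, the tau gene, was at 228 ± 93.1 against 430 and lower in all 7 mice.

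Neuropeptides were low. The 20 genes of the list summed to 58.8 CPM in main cluster members against 190 in the comparison nuclei, and 3 of the 6 measured were lower in all 7 mice, beside 20.7% of all genes. Among the peptidases, other A-type carboxypeptidases (*Cpa1* to *Cpa5*) were each at 0.0960 CPM or less, and *Pcsk1*, a prohormone convertase, was at 72.8 ± 21.6 against 18.7 and higher in all 7 mice. With *Cpa6* set aside, 1 of 11 measured peptidase and processing genes was higher in all 7 mice and 3 were lower (9.09% and 27.3%, beside 10.0% and 20.7% of all genes).

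The second cluster expressed a different set. Over its 74 members pooled, *Lgr5* was at 2061 CPM and *Cpa6* at 97.7, against 651 and 1673 in pooled main cluster members. *Meis2* was at 3205, *Etv1* at 346, *Synpr* at 1861, *Th* at 59.6 and *Trh* at 26.2 CPM. P301S replicate 3 gave 34 of the 74 members, so pooled values lean on that mouse, and the *Th* and *Trh* levels rest on few UMIs. *Nxph1*, a neurexin ligand of the MGE list, was at 5265 against 1186 in the comparison nuclei. The 10 genes of that list summed to 9235 CPM in pooled second cluster members, 1735 in main cluster members and 4618 in the comparison nuclei. The 21 genes of the dorsal LGE and bulb list summed to 11640, 14360 and 3360 in the same order. Over the 4 mice with at least 5 such members, *Stac*, an adaptor of calcium channels, was at 705 CPM against 2.10 in the main cluster of those mice, *Pde1c* at 2371 against 23.3 and *Thsd4* at 858 against 19.1. *Dnah11* was at 1.22 against 275. All 4 mice showed each of these differences, which are given without a test for the reason above.

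Markers of bulb projection neurons and ensheathing glia were mixed in the main cluster. *Tbx21*, *Lhx5*, *Barhl2*, *Prss56* and *Sostdc1* had 0 CPM in each of the 7 mice, and *Eomes* a mean of 0.101. The 10 genes of the mitral and tufted list summed to 347 CPM in pooled main cluster members against 139 in the comparison nuclei, of which *Ntng1*, an axon guidance gene and the only one measured, made up a mean of 300.8 ± 106 against 125. The 10 ensheathing genes summed to 136 CPM against 127. Among them, *Frzb*, a secreted Wnt antagonist, was at 12.4 ± 14.8 against 0.779 and higher in 6 of 7 mice, whereas *Mybpc1* was at 0.496 against 9.18 and lower in all 7. The highest *Frzb* value, 44.5 CPM in non-transgenic replicate 2, stood for 3 UMIs. In all nuclei, *Eomes*, a gene of mitral and tufted cells, had 12, 3, 5 and 21 UMIs in the non-transgenic mice. It had 3, 5 and 69 in the P301S mice, 5 and 6 in the knockout P301S mice and 0 and 2 in the active IKKβ P301S mice. The 3 highest *Eomes* values were in 3 of the 4 mice with many members. Other mitral and tufted genes differed: *Lhx5* was highest in active IKKβ P301S replicate 2 (145 UMIs) and *Cdhr1* in active IKKβ P301S replicate 1 (122). *Tbx21* was highest in P301S replicate 3 (62 UMIs), followed by active IKKβ P301S replicate 2 (48). The mitral and tufted list summed to 170 to 280 CPM in those 4 mice and to 163 to 263 in the other 7. In active IKKβ P301S replicate 1, 1 of its genes was at 0. In non-transgenic replicate 1, *Tbx21*, *Eomes*, *Cdhr1* and *Lhx5* had 33, 12, 64 and 17 UMIs beside 80302070 in the library. Other genes thus made up nearly all of its 280 CPM, and the sum cannot show how much bulb tissue was taken. The striatal gate held 4.28% to 6.70% of nuclei in those 4 mice and 2.92% to 11.4% in the others. How far the tissue taken differed between mice was not tested.

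The share of members per genotype asked whether tau or microglial NF-κB changed the number of these nuclei. Fewer nuclei of a type and fewer of its nuclei recovered cannot be told apart. The shares of nuclei were 2.87%, 0.227%, 0.443% and 3.82% in the non-transgenic mice, 0.135%, 0.180% and 2.93% in the P301S mice, 0.229% and 2.70% in the knockout P301S mice, and 0.130% and 0.232% in the active IKKβ P301S mice. Non-transgenic, P301S and knockout P301S groups each held both a mouse of low and a mouse of high share, and their ranges overlapped.

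The mean share was 1.84% ± 1.78 (SD, n = 4) in non-transgenic and 1.08% ± 1.60 (SD, n = 3) in P301S mice, a difference of -0.76 percentage points (two-sided exact permutation test, p = 0.571; adjusted over 4 contrasts, 0.8). Knockout P301S mice were at 1.47% ± 1.75 (SD, n = 2), 0.39 above P301S (exact permutation p = 0.8). Active IKKβ P301S mice were at 0.181% ± 0.0723 (SD, n = 2), a difference of -0.90 (exact permutation p = 0.8). The smallest p that these designs allow is 0.0286 for the first contrast and 0.1 for both others. All 7 mice with P301S averaged 0.934% (difference -0.91, exact permutation p = 0.215, smallest possible 0.00303).

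Per nucleus of the inhibitory gate, the differences were -4.04, 2.21, -4.63 and -4.73 percentage points in the same order (exact permutation p = 0.543, 0.8, 0.8 and 0.212). The SD within the non-transgenic, P301S and knockout P301S groups exceeded each of these differences, and the 2 active IKKβ P301S mice, at 0.130% and 0.232% of nuclei, stood beside P301S mice at 0.135% to 2.93%. The P301S difference was positive within the active IKKβ line, at 0.80, where 1 P301S mouse stood against 2 controls. Thinned to 3000 UMIs per nucleus, which left out 8986, 9759, 4484 and 5491 shallower nuclei in the 4 groups, the shares ran from 0.0114% to 3.73%, and the same 4 mice had the 4 highest values.

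Depth moved with composition. The median UMIs per member were 4682, 7572, 5142 and 5312 in non-transgenic replicates 1 to 4, 8127, 9469 and 5679 in P301S replicates 1 to 3, 5691 and 6787 in knockout P301S mice, and 9335 and 9736 in active IKKβ P301S mice. P301S mice exceeded non-transgenic mice by 2081 UMIs (exact permutation p = 0.171), and all P301S mice by 2155 (exact permutation p = 0.0727, adjusted 0.291). The 4 highest medians were in the mice where scattered nuclei made up most of the members, and 28.6% and 30.8% of members in the active IKKβ P301S mice were called doublets, against 7.32% to 18.2% in the others.

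Genes by genotype were tested on the raw UMIs of members summed per mouse, with edgeR's quasi-likelihood test and Benjamini-Hochberg adjustment. A gene was called at an adjusted p under 0.05 and an absolute log2 fold change over 0.1. Of 5194 genes tested, 0 were called in each of the 4 contrasts, or 0.0%. Unadjusted p values under 0.05 numbered 132 for P301S against non-transgenic, 98 for knockout, 458 for active IKKβ and 456 for all P301S mice. Evenly spread p values would give a share of 0.05 of the genes tested. The P301S and knockout counts lie below that share and the other counts above it. DESeq2 called 1 gene for active IKKβ and 1 for all P301S mice and 0 for the other 2 contrasts. The biological coefficient of variation was 25.9%.

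Levels of the selection genes over all members show what was averaged. The 4 non-transgenic mice had *Cpa6* levels of 1202, 733, 1005 and 1147 CPM, and the 3 P301S mice had 286, 81.2 and 1309. *Cpa6* was at 638 and 1212 in knockout P301S mice and at 178 and 115 in active IKKβ P301S mice. The low values were in mice with 2 or fewer main cluster members. Among main cluster members, *Cpa6* lay between 1583 and 2107 CPM in all 7 mice. *Meis2* over all members ranged from 284 to 3708 CPM, but from 3411 to 4564 in the main cluster.

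**Figure D4:**
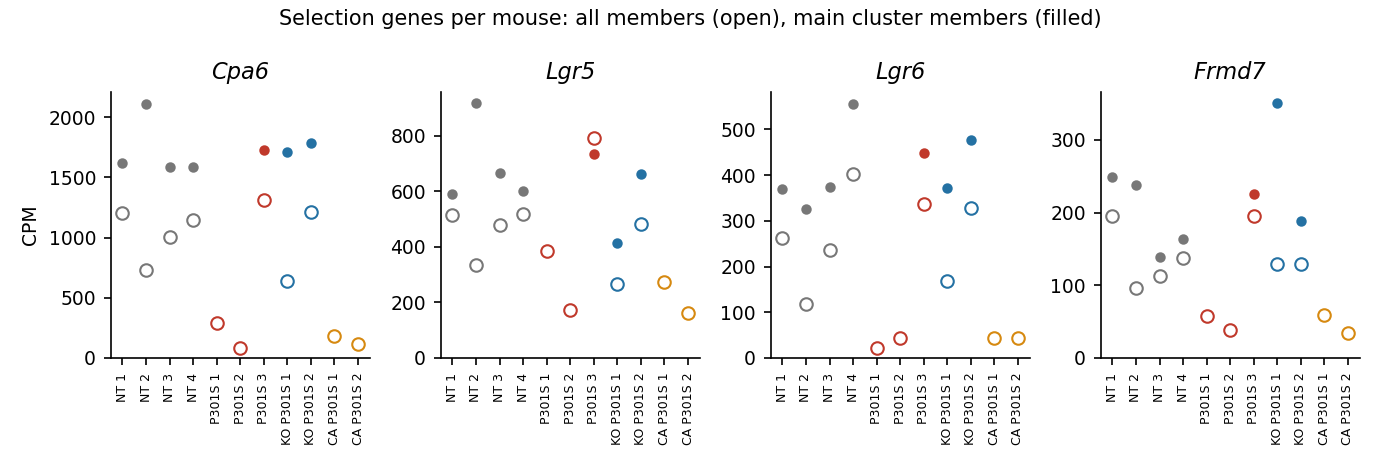
CPM of the 4 selection genes in each mouse (NT, non-transgenic; KO, knockout; CA, active IKKβ), over all members (open) and over main cluster members of mice with at least 10 (filled). Cpa6 over all members ran from 81.2 to 1309 CPM, and over main cluster members from 1583 to 2107.

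The genes of lowest p were not called, and included *Sst*, a marker of MGE interneurons. For active IKKβ, the log2 fold changes were 4.41 for *Nwd1*, 1.91 for *Rorb* and -2.89 for *Etv1* (edgeR adjusted p = 0.3 each). For P301S against non-transgenic, *Whrn* was at 1.34, *Sst* at 2.12 and *Nwd1* at -3.04 (edgeR adjusted p = 0.999 each). For the knockout, *Nwd1* was at 2.64, *Angpt1* at -2.78 and *Sst* at -2.47 (edgeR adjusted p = 0.999 each). For all P301S mice, *Col25a1* was at 1.501 and *Dlx6os1* at -0.93 (edgeR adjusted p = 0.533 each).

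Leaving out P301S replicate 3, the P301S mouse with many members, raised the calls from 0 to 289 for P301S and to 391 for all P301S mice. Of the 166 genes then lower with P301S, 142 were among those higher in the main cluster than in the comparison nuclei in all 7 mice, and of the 123 higher, 110 were lower there. Of all 4993 genes tested in that fit, 14.6% were higher and 25.3% lower in the main cluster in all 7 mice. P301S replicates 1 and 2 together held 2 main cluster members, against 544 in the non-transgenic mice. The same non-transgenic nuclei enter both comparisons, so this overlap was largely set in advance and is a description only.

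No gene of any list was called in the fit over all members. The 12 tested genes of the dorsal LGE and bulb list had 0 calls in each contrast and median log2 fold changes of -0.15 for P301S, 0.08 for the knockout, -0.98 for active IKKβ and -0.69 for all P301S mice, beside all-gene medians from -0.0173 to 0.0175. The marker lists of other cell types also had medians away from 0, with 0 calls. For active IKKβ the median was 1.11 over 4 tested oligodendrocyte genes, 1.47 over 3 astrocyte genes and 0.51 over 7 MGE genes. For all P301S mice it was 0.48, -0.50 and 0.60 over the same lists, for P301S -0.22, -1.12 and 0.48, and for the knockout 0.88, 0.94 and -0.36. Their part in the result was not tested. The 20 tau and tau kinase genes tested had medians from -0.0868 to 0.0163 and 0 calls, and the 4 tested NF-κB genes 0.0134 to 0.0995 and 0 calls.

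The human tau transgene could not be read in the members' counts. *Prnp*, whose promoter drives it, had 2 UMIs in all members and was not tested, and the overlapping gene *Prn*, looked at after its values were seen, had 10. In excitatory nuclei *Prn* was at 0.727 to 0.983 CPM in the 4 non-transgenic mice and 1.62 to 4.36 in the 7 P301S mice, with no overlap. Mouse *Mapt* was at 311, 266, 280 and 396 CPM in non-transgenic mice and at 344 to 468 in the 7 others, with 1 of the 4 non-transgenic values inside that range. Its log2 fold change for all P301S mice was 0.34 ± 0.17 (SE; edgeR adjusted p = 0.558). *Ikbkb* was at -0.16 ± 0.17 and *Xist* at -0.56 ± 0.23 (edgeR adjusted p = 0.926 and 0.533).

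Restricting the comparison to the main cluster left 7 mice, with P301S replicate 3 alone in its group and the active IKKβ group absent, so the P301S mouse is assumed to vary like the others. The P301S and knockout contrasts both rest on that 1 mouse, and in them genotype and that mouse cannot be told apart. Their calls therefore describe that mouse against others and do not test genotype. The contrast of both P301S groups weights the group means equally, so that mouse weighs as much there as both knockout mice together. Of 9882 genes tested, 4 were called for P301S against non-transgenic (0.0405%), 8 for the knockout against P301S (0.081%) and 3 for both P301S groups together (0.0304%). The selection genes chose these nuclei and are given as levels only. *Lgr5* ran from 416 to 920 CPM over the 7 mice, *Lgr6* from 326 to 555 and *Frmd7* from 139 to 350.

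*Gm32647*, a long noncoding RNA (chr7:94042691-94709171), fell by 1.60 ± 0.26 (SE) on the log2 scale for both P301S groups (edgeR adjusted p = 6.18e-06). Its level was 154, 816, 410 and 124 CPM in non-transgenic replicates 1 to 4, 89.9 in P301S replicate 3, and 65.6 and 87.8 in the knockout P301S mice, so the groups did not overlap. The 2 highest values came from non-transgenic replicates 2 and 3, with 12 and 30 nuclei. The SE and p rest on a spread shared over genes and do not measure the spread of the non-transgenic values. Among the 4 mice with at least 100 members, the change was -0.65 (edgeR adjusted p = 0.834). In excitatory nuclei *Gm32647* lay between 79.1 and 162 CPM in all 11 mice.

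*Gm47283* and *Gm43713*, called in all 3 contrasts, also varied between mice in excitatory nuclei. *Gm47283* (chrY:90784738-90816464), in main cluster members, was at 229, 193, 43.9 and 73.9 CPM in the non-transgenic mice, 7.79 in P301S replicate 3, and 65.6 and 401 in the knockout P301S mice. In excitatory nuclei of the same mice it was at 143, 188, 23.4, 58.7, 3.49, 178 and 300.8. In excitatory nuclei of P301S replicates 1 and 2 it was at 103 and 198, and of the active IKKβ P301S mice at 17.1 and 134. *Gm43713*, an antisense RNA (chr3:88845025-88900001), was at 10.6 CPM in P301S replicate 3 and 22.0 in non-transgenic replicate 3, against 59.3 to 91.4 in the other 5 mice. In excitatory nuclei those 2 mice were at 18.5 and 20.4, and the other 9 at 68.2 to 102. *Mid1* (chrX:169685199-170005736), a ubiquitin ligase gene called higher in the knockout by 2.65 ± 0.44 (SE; edgeR adjusted p = 4.35e-06), was at 13.4 to 29.3 CPM in the 3 active-line mice and 74.2 to 131 in the 4 floxed-line mice. *Gm47283* and *Mid1* lie near the ends of the sex chromosomes, where X and Y share sequence, so reads may be shared between copies. P301S replicate 3 is an active-line mouse and both knockouts are floxed-line mice. The knockout contrast of main cluster members therefore cannot tell line and knockout apart. Among non-transgenic mice, which have no knockout, *Mid1* there was at 100.5 and 74.2 CPM in the floxed line and 29.3 and 13.4 in the active line. In excitatory nuclei of all mice, *Mid1* was at 27.0 to 78.6 CPM in the floxed line, with or without the knockout. It was at 6.21 to 13.9 CPM in the active line. The part of the line was not tested.

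A further 3 genes of the knockout contrast fell. *Egr1*, an activity-induced transcription factor, was at 82.2 CPM in P301S replicate 3 and at 0 and 25.6 in the knockout mice (log2 fold change -1.81 ± 0.44 SE, edgeR adjusted p = 0.047). In the non-transgenic mice it was at 44.7 and 44.5 in the floxed line and at 65.9 and 71.9 in the active IKKβ line, so for *Egr1* too, line and knockout cannot be told apart. Of 16 tested activity-induced genes, 1 passed the test and 12 had an unadjusted p under 0.05, beside 8 and 324 of all 9882 genes, with a list median of -1.81 beside -0.06 over all genes. The 20 genes of that list summed to 841 CPM in P301S replicate 3, 678 and 399 in the knockout mice and 401 to 764 in the non-transgenic mice. In excitatory nuclei *Egr1* was at 24.1 to 44.5 CPM in the P301S mice and 11.9 and 30.3 in the knockout mice.

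*Inpp5d*, a microglial phosphatase gene, had 32 UMIs in P301S replicate 3 and 0 in the knockout mice, at least 7.15-fold lower, counting 3 UMIs over the group as the floor. The non-transgenic mice had 7, 0, 5 and 7 UMIs, or 7.11, 0, 36.6 and 4.70 CPM, against 22.7 CPM in P301S replicate 3. The 8 microglial genes summed to 113 CPM in P301S replicate 3, 0 and 33.3 in the knockout mice, and 0, 37.6, 61.9 and 139 in the non-transgenic mice, and their part in the result was not tested. *Gm26848*, a long noncoding RNA, was at 217 CPM in P301S replicate 3 and 43.7 and 82.2 in the knockout mice, but 44.5 to 264 in the controls.

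Few UMIs also lay behind calls given above, as knockout P301S replicate 1 held 3 each of *Gm47283*, *Gm43713* and *Gm32647*, 6 of *Mid1* and 0 of *Egr1*. The 3 remaining calls rested on few UMIs or 1 mouse as well. *AC163285.1* had 20 UMIs in knockout P301S replicate 2 and 0 in the other main cluster nuclei, and 332 of its UMIs in excitatory nuclei came from that mouse against 1 to 7 in each other. *Mnd1* had 20 UMIs there, 0 in knockout P301S replicate 1 and 1 in P301S replicate 3. In the non-transgenic mice it had 18, 1, 1 and 16 UMIs, or 18.3, 14.8, 7.32 and 10.8 CPM, against 22.2 in knockout P301S replicate 2. Its log2 fold change for the knockout ran from -2.29 to 4.73 when 1 mouse was left out. *Cntnap5b*, a contactin-associated protein gene, was higher in P301S replicate 3, at 343 CPM against 14.8 to 183 in the non-transgenic mice (log2 fold change 1.31 ± 0.28 SE, edgeR adjusted p = 0.0127).

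Leaving out 1 mouse at a time changed most of these calls. P301S replicate 3, alone in its group, was never left out, so such fits cannot show what depends on it. *Gm47283* and *Gm43713* remained called for P301S in 6 of 6 such fits, and with *Mid1* in 5 of 6 for the knockout, where leaving out knockout P301S replicate 2 ended all 3. Over the 6 knockout fits the log2 fold change ran from 2.645 to 2.695 for *Mid1*, 2.317 to 3.109 for *Gm43713* and 2.756 to 5.685 for *Gm47283*. *Gm32647* remained called in 4 of 6 for both P301S groups and was not called without either knockout mouse. *Egr1* remained called in 1 of 6, *Inpp5d*, *Mnd1* and *Gm26848* in 2 of 6 and *AC163285.1* in 1 of 5. *Cntnap5b* remained called in 2 of 6 and *Gm32647* for P301S alone in 1 of 6. For both P301S groups, *Gm47283* and *Gm43713* remained called in 2 of 6.

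**Figure D5:**
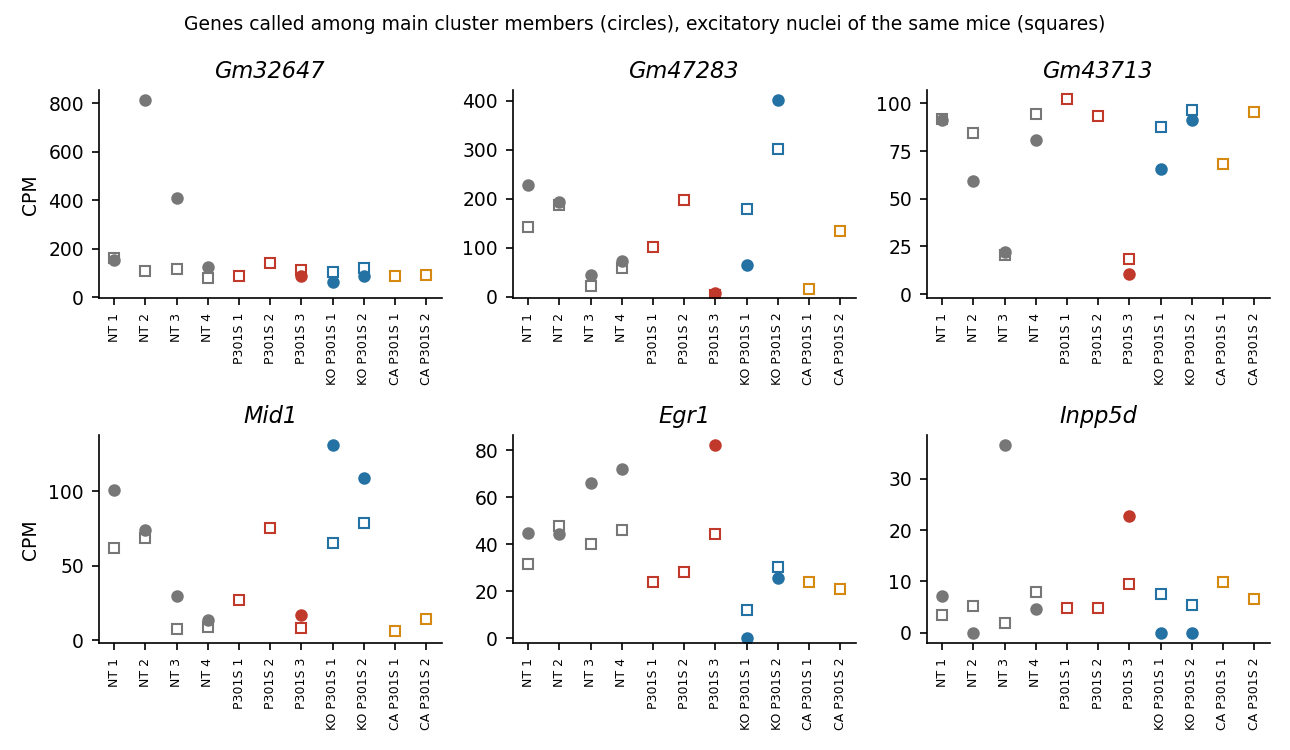
CPM per mouse of 6 genes called among main cluster members (circles, 7 mice) and the same genes in excitatory nuclei (open squares, 11 mice); NT, non-transgenic; KO, knockout; CA, active IKKβ. Gm47283 and Gm43713 are low in P301S replicate 3 in both kinds of nuclei, and Gm32647 is highest in non-transgenic replicates 2 and 3 in main cluster members.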

How the data were processed

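The authors sorted DAPI-stained nuclei from frozen cortex, made 10x Genomics droplet libraries from the 3′ ends of transcripts, aligned reads to mm10 with introns included using Cell Ranger 3.1.0, and analysed them with Seurat 3.0, according to the labels and the study's methods. The deposited files hold raw UMI counts per gene and barcode, 31053 genes, 1 matrix per mouse and no pooling. The deposited nuclei, 114118 barcodes, carried no cell type annotation. All 11 mice were used; 1556 barcodes failed on mitochondrial UMIs and 23 on genes. The study's methods call the RNA-seq mice male, the labels female. The counts follow the labels: *Xist* over all members was at 592 to 1623 normalised CPM in the 11 mice. In main cluster members of the 7 mice with at least 10, the Y genes *Ddx3y*, *Kdm5d* and *Eif2s3y* were at 0 and *Uty* at 2.22 CPM or less.

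Inhibitory nuclei were clustered (Leiden, leidenalg 0.10.2, resolution 0.5) on 2000 variable genes without the 4 selection genes and the gate genes, 15 components and 20 neighbours. Doublets were called per library from simulated pairs at 0.8% per 1000 barcodes, 8.30% of all nuclei and 12.5% of members. They were kept, unlike in the study, which removed predicted doublets of each sample with DoubletFinder, and were left out in an alternative. Intervals are 95% Wilson and cover counting error only. Summed counts (134557 to 2366431 UMIs per mouse) were tested with edgeR 4.0.16 (TMM, filterByExpr, quasi-likelihood), with DESeq2 1.42.0 as an alternative. The scripts were tested on simulated data. Shares were tested by exact permutation over mice. Each mouse is 1 library, so the mouse is the unit of every test. Permutation p-values measure the spread between mice. edgeR shares the spread over genes, so its p-values do not measure that of each gene alone. In the main cluster fit they followed the shared spread. The study tested single nuclei with MAST; here nuclei of a mouse were summed.

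The genes named were the members of fixed lists (at most about 6 a list), the 20 with the largest ratio to inhibitory nuclei with 0 of the 4 genes (50 CPM or more, higher in every mouse, selection genes aside, 1 CPM added for log ratios), and up to 6 called genes each way per contrast, or the 3 of lowest p each way where fewer than 3 were called. *Prnp*, *Mapt*, *Ikbkb*, *Xist* and the selection genes were always considered. A list gene counted as measured at 10 CPM or more in either class. Other rankings (second cluster, main cluster losses) were chosen after the values were seen. Members and lists were chosen with earlier results of these data known. The numbers ending the sample titles did not pair the mice. Gene positions are GENCODE M21 (GRCm38), matched for 30934 of 31053 gene IDs. Near-identical or overlapping genes, *Prnp* and *Prn* among them, may share reads. Some named genes are not reported here. Alternatives are given in the closing section.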

Additional observations from a re-analysis of the deposited data

Results flagged for a closer look

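Among 38 values examined in the 4 non-transgenic mice, 1 had a mouse standing apart by Dixon's ratio of gap to range, past its 95% critical value, and chance gives about 1 in 20. *Whrn* over all members was low in non-transgenic replicate 2, at 10.3 normalised CPM against 24.7 to 26.6 in the other 3 (ratio 0.88). That mouse had 23 members with 218352 UMIs in all, so the value rests on very few UMIs.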

How the results depend on the processing

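Depth and numbers limit every comparison: the active IKKβ mice held 2 main cluster members, knockout P301S replicate 1 held 10, and 1 P301S mouse carried its group. Counts of called genes below are for P301S, knockout, active IKKβ and all P301S, against 0 over all members. Without the filter on low counts they were 24, 14, 180 and 191. With at least 3 of the 4 genes they were 14, 13 and 7, with no value for active IKKβ and 1 mouse in each of the P301S and knockout arms. Among main cluster members they were 4, 8 and 3, again without active IKKβ and with 1 P301S mouse. Alternatives chosen after seeing the data gave 17, 12 and 8 in both clusters, with 1 P301S mouse, and 74, 144 and 17 in mice with at least 100 members, where the knockout count compares 1 library with 1 library and only the 2 non-transgenic mice give a spread. DESeq2 called 1 gene for active IKKβ and 1 for all P301S, and breeding line as a covariate 1 for active IKKβ. The cause of these differences was not tested. Leaving out 1 mouse gave 0 to 289, 0 to 8, 0 to 0 and 0 to 391, the upper values without P301S replicate 3. The other normalisation, age and doublets left out gave 0. Dropping the minimum of nuclei only repeated the main fit, since the mouse with fewest members had 14, above the minimum of 10. The fit with the replicate number as a block also called 0 genes in each contrast; over 5 title groups, 10 correlations of differences ran from -0.157 to 0.0959 and 0 exceeded 0.1, so the numbers are not a pairing.

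Among main cluster members, leaving out 1 mouse gave 2 to 4 calls for P301S, 2 to 8 for knockout and 0 to 4 for all P301S. The 4 mice with at least 100 members gave 9 and 18 for P301S and knockout, the latter again 1 library against 1.

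Shares changed sign in few settings. The P301S difference became 0.80 (nuclei) and 4.31 (inhibitory nuclei) within the active line. Leaving out 1 mouse, the differences in share of nuclei ran from -1.68 to -0.10 for P301S, -0.85 to 1.62 for knockout, -1.37 to 0.0237 for active IKKβ and -1.44 to -0.25 for all P301S. In share of inhibitory nuclei they ran from -8.92 to -1.15, -4.30 to 8.73, -7.11 to 0.25 and -7.53 to -1.84. The knockout differences turned negative without P301S replicate 1, P301S replicate 2 or knockout P301S replicate 2, and the active IKKβ ones positive without P301S replicate 3. Median UMIs per member changed by 1226 to 3121, -2559 to -664, 737 to 2632 and 1823 to 2787. For all P301S the change passed an unadjusted 0.05 without P301S replicate 3, knockout P301S replicate 1 or non-transgenic replicate 2 (exact permutation p = 0.0429, 0.0476 and 0.0417). Among main cluster members alone the 4 changes had the opposite sign, at -542, 836, -623 and -332, but the active IKKβ value rests on 2 nuclei of 1 mouse and P301S replicate 1 on 2 nuclei, so no sign is read from them. The *Ikbkb* change for all P301S mice turned positive at 0.30 with at least 3 of the 4 genes, 0.14 in both clusters and 0.25 in the main cluster.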
